A study of Mus musculus with 8 samples.

Results

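The 33 genes described here encode the core machinery of macroautophagy, with the ubiquitin-like proteins of the autophagosome membrane, 3 cargo receptors and the transcription factor Tfeb. They were chosen by name, and the rule used no measured value, though earlier results of these data were known when the list was made. Every one had a probe on the arrays, and together they held 44 of the 39408 probes tested and made up 33 of 19742 genes. Hippocampal RNA came from C57BL/6J mice of wild type genotype that received no treatment and aged in the home cage. The full hippocampus was dissected by hand at 3 months (3M) or at 29 months (29M), so that age is the only labelled difference between the groups. The study's methods say that the oldest mice were bought at an advanced age and then kept in the authors' rooms. Their age is given there as a range around 29 months. Purchase and rehousing go with the 29M group and cannot be told apart from age. Each group had 4 samples, each on its own 1-colour array, on which the brightness of a Cy3-labelled spot reports the amount of 1 transcript. The labels number the samples but do not say whether each came from its own mouse, so the p-values measure the spread between these samples.

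In macroautophagy a cup-shaped membrane grows around cytoplasm, closes into an autophagosome and fuses with a lysosome, where the content is degraded. The Ulk1 kinase complex starts the process, a phosphatidylinositol 3-kinase complex marks the membrane, Atg9a vesicles and Atg2 proteins supply it with lipid, and ubiquitin-like conjugation systems attach LC3 and GABARAP proteins to it. Neurons do not divide and rely on this route for the removal of aggregated proteins and worn organelles, and mice that lack Atg5 or Atg7 in neurons develop neurodegeneration. Much of the control of the pathway acts on proteins, through phosphorylation and lipidation, which an RNA measurement does not see.

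The ages rest on the file deposited for each sample. A deposited table of the whole series, which holds background values only, carries under 7 of its 8 sample names the values of another sample's array, and which assignment is right was not tested. The arrays differed somewhat in quality, and the smallest share of spots well above background was on 3M replicate 1. That array was also the lowest or highest of its group for 62.1% of all genes, beside 38.6% to 52.4% for the other 3M arrays. Between 76.2% and 85% of the 43020 spots without controls were well above background, no spot was saturated, and any pair of arrays correlated at 0.991 to 0.998 across probes. The arrays lay on 3 slides, each with both ages: 3M replicate 1 with 29M replicates 3 and 4, 3M replicate 2 with 29M replicate 2, and 3M replicates 3 and 4 with 29M replicate 1. All 8 neuronal and all 8 hippocampal marker genes were well above background on every array, and none of them passed the test. Of the hippocampal markers, 4 had positive and 4 negative changes. The largest were those of Calb1 (-0.36, SE 0.12) and Zbtb20 (-0.33, SE 0.13), and Zbtb20 had no overlap between the ages. Of the 8 microglial markers, Trem2 passed the test (log2 change 0.65, SE 0.13), and the mean normalized log2 level over the 8 was 13.80 to 14.10 in 3M and 14.17 to 14.37 in 29M. Their median log2 change was 0.35. The 6 astrocyte markers had a median log2 change of 0.01, with 3 positive and 3 negative changes. Gfap was called higher (0.71, SE 0.12), and Slc1a2, which was not called, had a change of -0.22 (SE 0.09) with no overlap. No marker of oligodendrocytes, their precursors, endothelium, choroid plexus or red blood cells passed. All 6 oligodendrocyte markers had positive changes (median 0.18), as had all 4 of endothelium (median 0.20), where Flt1 (0.37, SE 0.10) had no overlap. All 3 red blood cell markers had negative changes (median -0.34). The medians were 0.08 for the precursors and 0.12 for choroid plexus. The part that microglia or other cell types had in the changes of autophagy genes was not tested. In RNA from whole tissue, fewer cells of a type and less RNA per cell cannot be told apart.

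None of the 33 autophagy genes changed with age by the criteria of the study. A probe was called when its adjusted p (limma, Benjamini-Hochberg over all 39408 probes) was under 0.1 and its log2 change was at least 0.5 in size, and a gene was called when any of its probes was. By this rule 0 of 33 genes were higher in 29M, where 1.84% of all 19742 genes were called, and 0 of 33 were lower, where 0.892% were (2.73% in either direction). That last share was 4.76% without 3M replicate 1, and it was 1.39% without 3M replicate 2, 1.37% without 29M replicate 1 and 1.51% without 29M replicate 2. Counted at an unadjusted p under 0.05 in limma, 4 of 33 genes differed (12.1%, beside 17.1% of all genes): Sqstm1, Atg4b and Tfeb with higher values in 29M (9.44% of all genes) and Ambra1 with lower values (7.65%). The count of called members was also 0 in each of 17 alternative fits, which changed the normalization, the probe filter, the treatment of outlier spots, the block or the arrays included. As no member's reported change reached 0.5 in size, that count had little room to vary.

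The changes were small in both directions. The level of a gene is given as a normalized log2 intensity, read on its brightest probe by the mean of all 8 arrays, and a change is the 29M mean minus the 3M mean on that scale. Of the 33 genes, 21 had a positive and 12 a negative change (63.6% positive, beside 52.9% of all genes). The median change was 0.04, beside 0.01 over all genes, and the changes ran from -0.33 for Ambra1 to 0.35 for Atg10. In absolute size the median was 0.10 for the autophagy genes and 0.12 for all genes. No member reached the fold threshold, which 954 of 19742 genes did.

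The precision of the arrays bounds what could have gone unseen. The standard error of the change was 0.07 to 0.21, with a median of 0.10, and the SD between the 4 arrays of a group had a median of 0.12 in 3M and 0.11 in 29M. For 26 of 33 genes (78.8%, beside 68.9% of all genes) the 95% interval of the change lay wholly within 0.5 of 0 in either direction, so that the interval leaves out a change of the size the criteria ask for. The interval reached past 0.5 for Atg10, Nbr1, Sqstm1 and Tfeb on the higher side and for Atg9a, Atg16l2 and Ambra1 on the lower. These intervals are those of the brightest probe, and on a second probe the interval reached 0.58 for Rb1cc1 and 0.51 for Wipi1. Atg4a, counted among the 26, gives no bound, since its probe was not well above background on any of the 8 arrays. The other 32 genes were well above background on all 8.

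**Figure D1:**
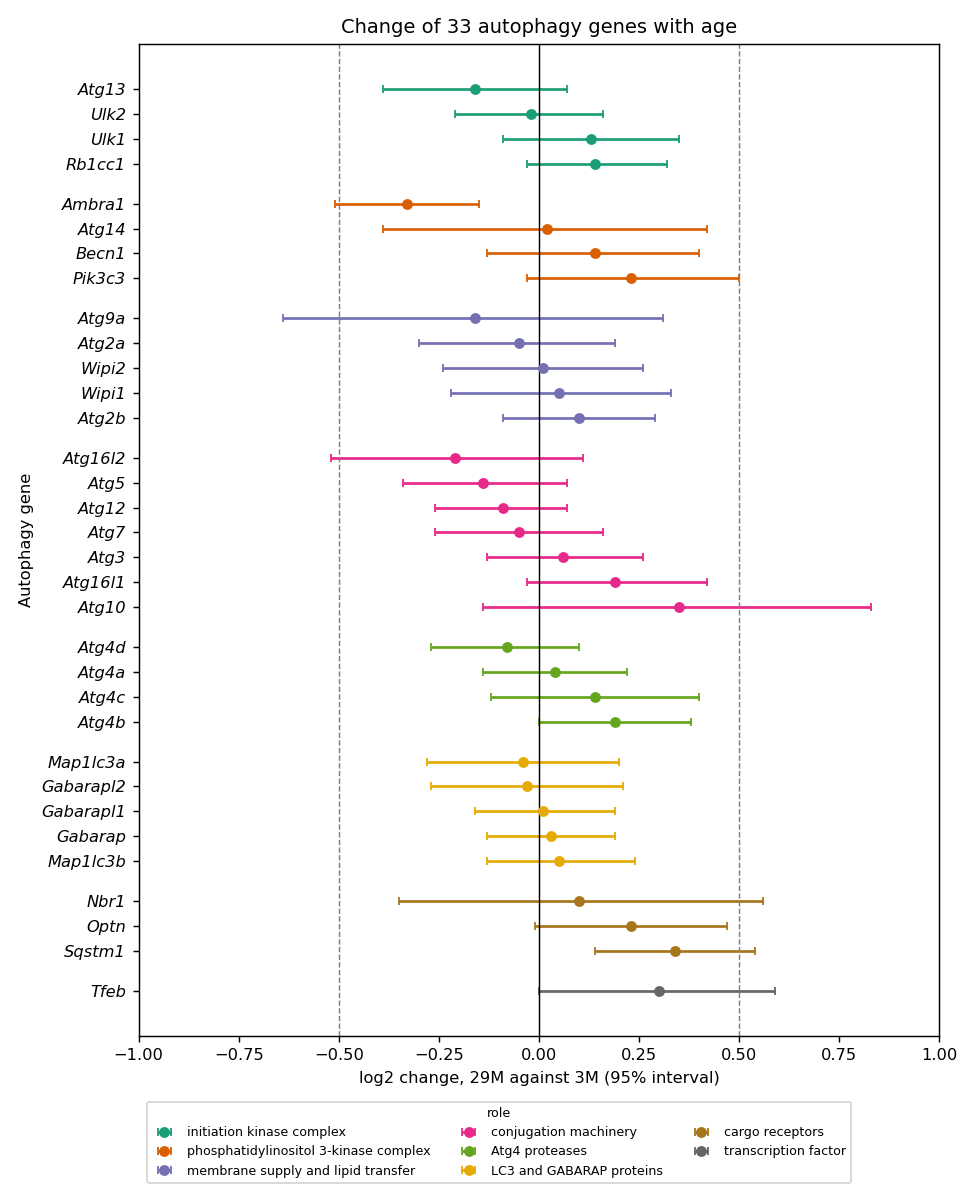
Log2 change of each of the 33 autophagy genes (x axis, mean of 4 29M arrays minus mean of 4 3M arrays, normalized log2 scale) with its 95% interval as a bar, grouped and coloured by role. Dashed lines mark the fold threshold of 0.5, and no point lies beyond them; the intervals of Ambra1 and Sqstm1 lie clear of 0, and those of Atg4b and Tfeb begin at 0.00.

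**Figure D2:**
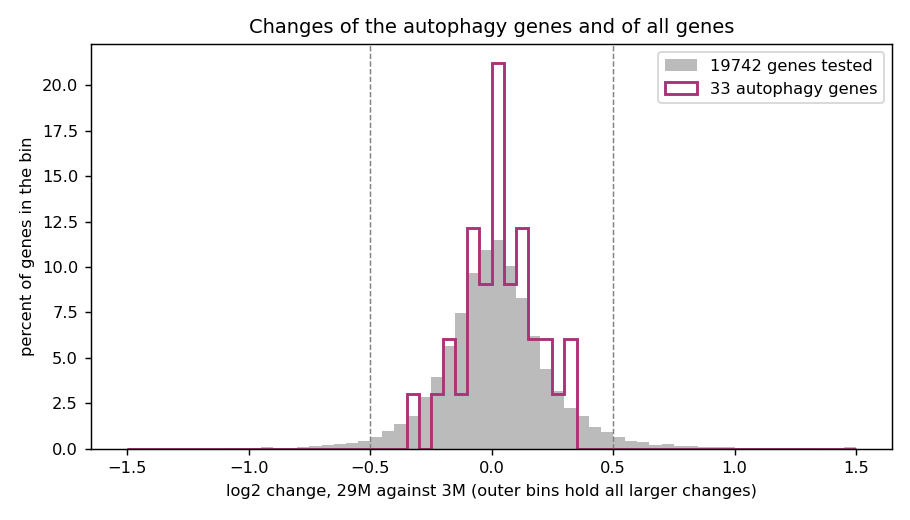
Percent of genes (y axis) in bins of 0.05 of the log2 change between 29M and 3M (x axis), for 19742 genes in grey and the 33 autophagy genes as a purple outline. The outline lies between -0.33 and 0.35, inside the dashed lines at the fold threshold, while the grey tails run past both.

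Among the 4 genes of the initiation kinase complex none passed the test, and their median log2 change was 0.06. Ulk1 encodes the kinase that receives signals from mTORC1 and AMPK. Its normalized log2 levels were 15.00, 15.27, 15.11 and 15.06 in 3M and 15.14, 15.12, 15.33 and 15.38 in 29M. The groups overlapped, as 3M replicate 2 lay above 29M replicates 1 and 2. The change was 0.13 (SE 0.10, limma adjusted p = 0.531), and it was 0.36 within the first slide, -0.16 within the second and 0.06 within the third. Its homologue Ulk2 had a change of -0.02 (SE 0.08) on 1 probe and 0.17 (SE 0.14) on the other. Atg13, the adaptor that brings the kinase to its partners, had a change of -0.16 (SE 0.10). Rb1cc1, which encodes the scaffold FIP200, had a change of 0.14 (SE 0.08), and 0.26 (SE 0.14) on its second probe.

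The phosphatidylinositol 3-kinase complex held the member with the lowest adjusted p. Ambra1 encodes a scaffold that binds Beclin 1 and links it to ubiquitin ligases and to Ulk1. On its probe (A_55_P2124090) the normalized log2 levels were 13.70, 13.57, 13.60 and 13.52 in 3M and 13.23, 13.18, 13.27 and 13.38 in 29M. Every 29M array was below every 3M array. The level averaged 13.60 ± 0.08 in 3M and 13.27 ± 0.08 in 29M (SD, n = 4 per group). The change of -0.33 (SE 0.08) corresponds to a level 1.26-fold lower in 29M, which is under the fold threshold, with a 95% interval of -0.51 to -0.15. The unadjusted limma p was 0.00246 and the adjusted p was 0.0849, so that Ambra1 was the 1 member under 0.1 and was not called because of its size. Within the slides the change was -0.37, -0.38 and -0.33. Over the 17 alternative fits it ran from -0.37 to -0.26, and the adjusted p ran from 0.0492 to 0.230.

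The other 3 genes of this complex overlapped between the ages. Becn1 encodes Beclin 1, the regulatory subunit. Its normalized log2 levels were 13.31, 13.38, 13.26 and 13.17 in 3M and 13.55, 13.67, 13.29 and 13.17 in 29M. Replicates 1 and 2 of 29M lay above all 3M arrays, and replicates 3 and 4 lay among them. The change was 0.14 (SE 0.12, limma adjusted p = 0.602). Pik3c3, which encodes the lipid kinase VPS34 itself, had a change of 0.23 (SE 0.12) on 1 probe and 0.11 (SE 0.10) on the other, and the adjusted p of the first was 0.356. Atg14, which directs the complex to the site of autophagosome formation, had a change of 0.02 (SE 0.18).

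The 5 genes of membrane supply had a median change of 0.01, and none passed. Atg2a and Atg2b encode lipid transfer proteins, and their changes were -0.05 (SE 0.11) and 0.10 (SE 0.08). Atg9a, the scramblase that arrives on vesicles, had a change of -0.16 with a wide error (SE 0.21). Wipi1 and Wipi2 encode proteins that bind phosphatidylinositol 3-phosphate, and their changes were 0.05 (SE 0.12) and 0.01 (SE 0.11). The second probe of Wipi1 had a change of 0.23 (SE 0.12, 95% interval -0.05 to 0.51), and that of Wipi2 -0.01 (SE 0.20).

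For the 7 genes of the conjugation machinery the median change was -0.05, and 0 passed. Atg5 is joined to Atg12 in the conjugate that acts as the ligase for LC3. Atg5 levels were 12.20, 12.20, 12.41 and 12.25 in 3M and 12.17, 12.22, 12.17 and 11.96 in 29M on the normalized log2 scale. The groups overlapped by a small margin, with 29M replicate 2 above 3M replicates 1 and 2. The change was -0.14 (SE 0.09, limma adjusted p = 0.486). Atg7 encodes the activating enzyme that both conjugation systems share. It read 13.54, 13.31, 13.25 and 13.37 in 3M and 13.30, 13.20, 13.47 and 13.29 in 29M, and the groups overlapped over most of their range. The change was -0.05 (SE 0.09, limma adjusted p = 0.833) on this probe and 0.08 (SE 0.09) on the other, a difference in sign within the errors.

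Atg12 was measured by a pair of probes with errors of similar size. The probe with the higher mean read 14.32, 14.24, 14.17 and 14.22 in 3M and 14.10, 14.19, 14.18 and 14.11 in 29M, with overlapping groups and a change of -0.09 (SE 0.07, limma adjusted p = 0.568). The other probe (A_55_P2085716) read 10.16, 10.02, 10.14 and 9.87 in 3M and 9.81, 9.80, 9.82 and 9.61 in 29M. There every 29M array was below every 3M array, with a change of -0.29 (SE 0.09) and an adjusted p of 0.168 (limma). Which part of the transcript each probe reads was not analysed here.

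The remaining conjugation genes did not separate the ages. Atg3, the E2-like enzyme of LC3, had a change of 0.06 (SE 0.09). Atg10, the E2-like enzyme of Atg12, had a change of 0.35 (SE 0.21) on 1 probe and 0.00 (SE 0.08) on the other, so that the largest positive change among the members was not seen by the more precise probe. Atg16l1, which places the ligase on the membrane, had a change of 0.19 (SE 0.10). Its homologue Atg16l2 had a change of -0.21 (SE 0.14) on 1 probe and 0.13 (SE 0.12) on the other.

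The Atg4 proteases cut LC3 and GABARAP precursors so that they can be lipidated, and later release them from the membrane. Atg4b is regarded as the most active of the 4 enzymes. Its normalized log2 levels were 10.30, 10.44, 10.56 and 10.50 in 3M and 10.67, 10.71, 10.58 and 10.60 in 29M. All 29M arrays lay above all 3M arrays, but 3M replicate 3 (10.56) was close under 29M replicate 3 (10.58). The change was 0.19 (SE 0.08), the unadjusted limma p was 0.0476 and the adjusted p was 0.289. Within the slides the change was 0.29, 0.26 and 0.14. Atg4c had a change of 0.14 (SE 0.11) and Atg4d of -0.08 (SE 0.08). The change of Atg4a, whose probe was not well above background on any array, was 0.04 (SE 0.08) and is given as no fold.

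The LC3 and GABARAP proteins, which coat the autophagosome and bind cargo receptors, are encoded by 5 genes here, and each had a similar RNA level at both ages. The log2 changes of the 5 genes ran from -0.04 to 0.05. For all 5 the 95% interval stayed within 0.5 of 0. Map1lc3b encodes LC3B, the usual protein marker of autophagosomes. Its normalized log2 levels were 16.23, 16.14, 16.40 and 16.18 in 3M and 16.27, 16.36, 16.31 and 16.24 in 29M, so that the 29M arrays lay inside the range of the 3M arrays. The change was 0.05 (SE 0.08, limma adjusted p = 0.791). Map1lc3a had a change of -0.04 (SE 0.11), Gabarap of 0.03 (SE 0.07), Gabarapl1 of 0.01 (SE 0.08) and Gabarapl2 of -0.03 (SE 0.11).

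All 3 cargo receptors had positive changes, with a median of 0.23, and 0 of 3 were called. Sqstm1 encodes p62, which binds ubiquitinated cargo and LC3 and is itself degraded by autophagy. On its probe (A_55_P2069714) the normalized log2 levels were 13.52, 13.66, 13.67 and 13.49 in 3M and 14.02, 14.02, 13.79 and 13.86 in 29M. Each 29M array was above each 3M array. The level averaged 13.58 ± 0.09 in 3M and 13.92 ± 0.11 in 29M (SD, n = 4 per group). The change of 0.34 (SE 0.09) corresponds to 1.27-fold, with a 95% interval of 0.14 to 0.54. The unadjusted limma p was 0.00374 and the adjusted p was 0.103, so that Sqstm1 missed both thresholds. Within the slides the change was 0.31, 0.36 and 0.44. Over the 17 alternative fits it ran from 0.31 to 0.38, and the adjusted p ran from 0.0782 to 0.250. Optn, a receptor for bacteria and damaged mitochondria, had a change of 0.23 (SE 0.11, limma adjusted p = 0.317), and Nbr1, a receptor related to p62, had a change of 0.10 (SE 0.20).

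Across the members, 4 of 44 probes separated the ages with no overlap, those of Sqstm1 and Atg4b above and those of Ambra1 and Atg12 (second probe) below, where 11.1% of all probes did. Counted by gene on the brightest probe, it was 3 of 33 (9.09%), beside 11.6% of all genes, with 2 higher in 29M (6.34% of all genes) and 1 lower (5.21%). The shares among autophagy genes thus lay near or under those of the whole array.

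**Figure D3:**
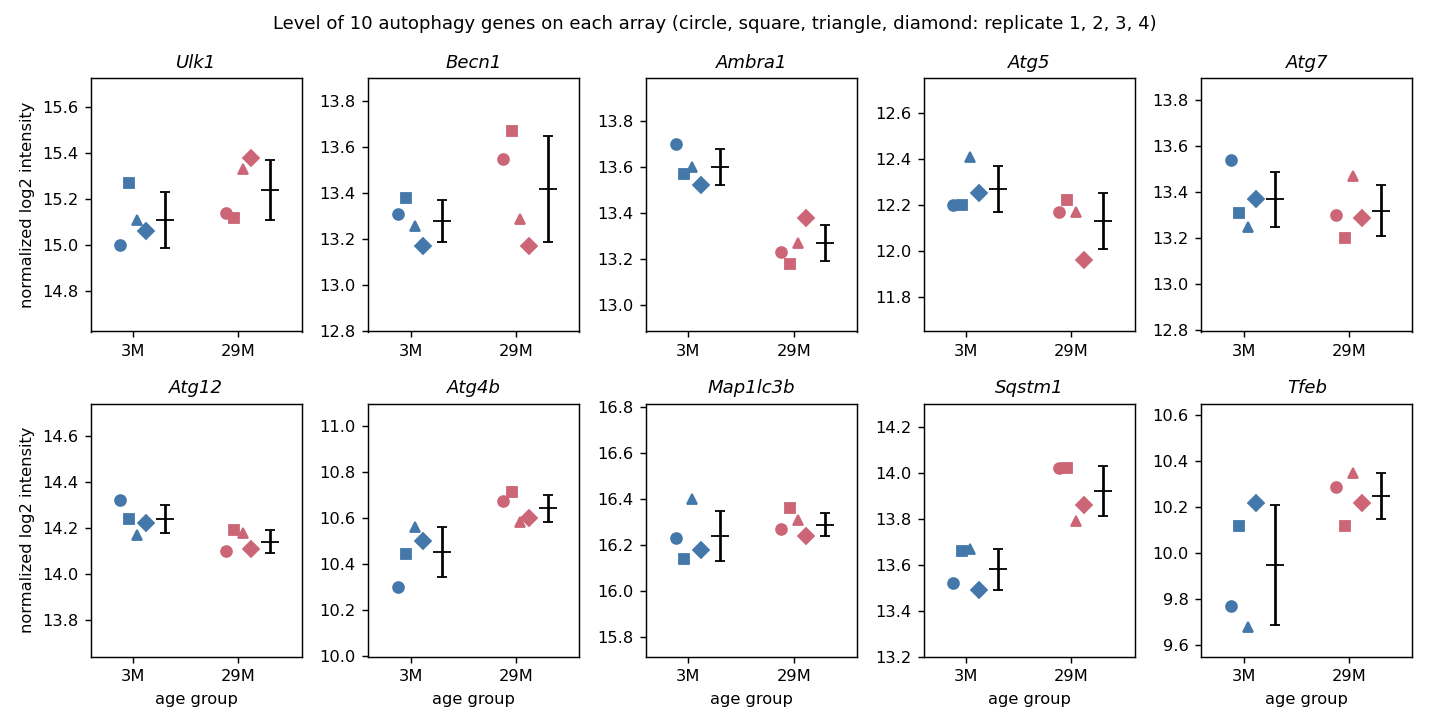
Normalized log2 intensity (y axis, each panel with its own range) of 10 autophagy genes on every array of 3M (blue) and 29M (red), with the group mean and SD (n = 4) in black; the marker shape gives the replicate number. The groups do not overlap in the panels of Ambra1, Atg4b and Sqstm1.

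Tfeb encodes the transcription factor that, on nutrient shortage or lysosomal stress, enters the nucleus and activates lysosomal and autophagy genes. Its normalized log2 levels were 9.77, 10.12, 9.68 and 10.22 in 3M and 10.29, 10.12, 10.35 and 10.22 in 29M. Replicates 1 and 3 of 3M lay below all other arrays, and replicates 2 and 4 read as the lower 29M arrays did. The change was 0.30 (SE 0.13), the unadjusted limma p was 0.0474 and the adjusted p was 0.288. It was 0.51 within the first slide, 0.00 within the second and 0.34 within the third.

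**Figure D4:**
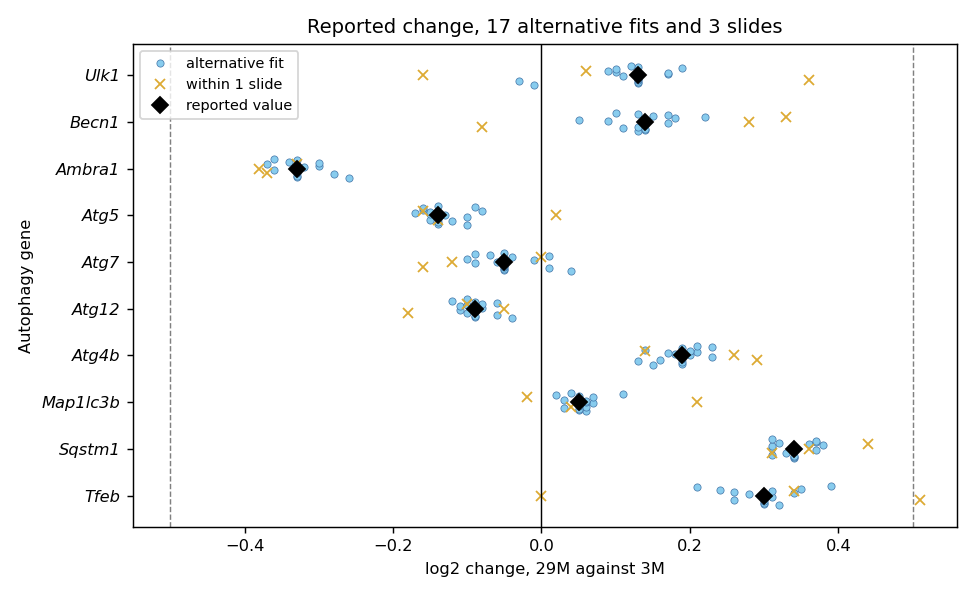
Log2 change (x axis, 29M minus 3M) of the same 10 genes under the reported fit (diamond), 17 alternative fits (circles) and within each of 3 slides (crosses). Ambra1 stayed negative and Sqstm1 and Atg4b stayed positive in every fit and slide, and circles of Atg7 and Ulk1 lie on both sides of 0.

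Tfeb binds the CLEAR motif, which contains the shorter E-box. Both were searched in RefSeq promoter windows (GRCm38.p6) of 250 bases before to 50 bases after a gene's start. Windows were found for 27 of the 33 genes, and Rb1cc1, Becn1, Pik3c3, Atg12, Atg16l1 and Map1lc3a had none. The full motif, the E-box with GT before and AC after it, reads the same on both strands. It was in the windows of 0 of 27 members and of 0.37% of 27025 genes. The E-box CACGTG, also the same on both strands and part of every full motif, was in 4 of 27 (14.8%), beside 8.09% of all genes. These were Atg3, Atg5, Atg7 and Atg14. The stretches below show where the letters lie, with the E-box in capitals, each read 5′ to 3′ on the strand of the gene. They are at chr16:45158734-45158763 on the plus strand for Atg3, chr10:44268313-44268342 on the plus strand for Atg5, chr6:114670952-114670981 on the plus strand for Atg7 and chr14:47568418-47568447 on the minus strand for Atg14.
Atg3: tCACGTGtcctgggagagtcgagtCACGTG
Atg5: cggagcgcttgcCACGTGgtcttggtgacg
Atg7: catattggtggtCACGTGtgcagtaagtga
Atg14: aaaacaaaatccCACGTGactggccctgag
Atg3 holds 2 copies, starting 94 and 71 bases before the start, while the copy of Atg5 starts 14 bases, that of Atg7 132 bases and that of Atg14 1 base before it. The log2 changes of these 4 genes were 0.06, -0.14, -0.05 and 0.02. Neither Sqstm1 nor Ambra1, the members with the lowest p, had either set of letters in the window. Their 250 bases before the start are given because these genes came nearest to the criteria, at chr11:50210821-50211070 on the minus strand for Sqstm1 and chr2:91729888-91730137 on the plus strand for Ambra1.
Sqstm1: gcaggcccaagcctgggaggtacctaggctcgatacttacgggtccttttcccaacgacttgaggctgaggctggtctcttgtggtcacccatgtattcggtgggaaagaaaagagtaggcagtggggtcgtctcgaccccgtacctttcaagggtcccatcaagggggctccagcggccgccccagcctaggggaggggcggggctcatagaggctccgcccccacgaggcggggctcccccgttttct
Ambra1: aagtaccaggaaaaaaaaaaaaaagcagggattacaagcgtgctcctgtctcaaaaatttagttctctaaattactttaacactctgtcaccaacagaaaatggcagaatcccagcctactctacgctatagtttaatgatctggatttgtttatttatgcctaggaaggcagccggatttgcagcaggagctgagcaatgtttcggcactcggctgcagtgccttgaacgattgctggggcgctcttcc
A match is a description of the letters and not of binding. Only these exact letters were searched, so their absence says nothing of sites with other letters or outside the window.

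The 4 members with the widest errors were Atg9a, Atg10, Nbr1 and Atg14, and 3 of them shared a pattern over the arrays, which was noticed after their values were seen. For Atg9a, Nbr1 and Atg14 the lowest 3M array was replicate 1 and the lowest 29M array was replicate 3, which lay on the same slide. The third array of that slide, 29M replicate 4, was the next lowest of its group for Nbr1 and Atg14 but not for Atg9a. Atg9a read 9.58 on that 3M array and 10.32 to 10.60 on the other 3M arrays, and 9.82 against 10.01 to 10.37 in 29M. Nbr1 read 10.31 against 10.69 to 11.06 in 3M and 10.46 against 10.76 to 11.18 in 29M. Atg14 read 11.70 against 12.19 to 12.50 in 3M and 11.93 against 12.21 to 12.40 in 29M. Atg10 departed from this in 3M, where replicate 4 (10.38) was lower than replicate 1 (10.60), while replicate 3 was again the lowest in 29M (10.98). The standard errors of the 4 genes were 0.18 to 0.21, and their groups overlapped. The pattern was not particular to the members. Stk11 and Retreg1, named below, Prkaa2 of the wider pathway and the markers Prox1 and Slc17a7 had the same lowest arrays. Replicate 1 of 3M was the lowest or highest array of its group for 26 of 33 members (78.8%), beside 62.1% of all genes, and the cause was not tested.

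Another 89 genes of the pathway, outside the 33, were read from the same fit. Of these 0 were called higher and 1 was called lower (1.84% and 0.892% of all genes), and their median log2 change was 0.02. The called gene was Retreg3, which encodes a receptor for the autophagy of endoplasmic reticulum. Its only probe read 12.71, 11.79, 11.40 and 11.73 in 3M and 9.90, 9.40, 10.57 and 9.36 in 29M, with no overlap. The change was -2.10 (SE 0.32, limma adjusted p = 0.0188), a level 4.29-fold lower in 29M. It was called in each of the 17 alternative fits, with changes from -2.36 to -1.83 and adjusted p from 0.0110 to 0.0633, and within the slides the change was -2.75, -2.40 and -1.66. Of its relatives, Retreg1 had a change of 0.47 (SE 0.27) and Retreg2 of 0.13 (SE 0.16), and the groups of both overlapped.

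Upstream of the Ulk1 complex, 0 of 30 nutrient sensing genes were called. Ddit4, which encodes the mTORC1 inhibitor REDD1, read 15.42, 15.63, 15.61 and 15.53 in 3M and 14.91, 15.17, 15.16 and 15.10 in 29M, with no overlap. Its change was -0.46 (SE 0.09, limma adjusted p = 0.0433), under the fold threshold. It was called in the fit without 3M replicate 1. Deptor, which encodes another inhibitor of mTOR, read 10.99 to 11.31 in 3M and 11.46 to 11.55 in 29M, also with no overlap, and its change was 0.35 (SE 0.09, limma adjusted p = 0.0981). Rraga, a Rag GTPase of the lysosomal surface, had a change of -0.38 (SE 0.14) and an adjusted p of 0.219 (limma), and Stk11, the kinase LKB1 that activates AMPK, had a change of 0.41 (SE 0.28).

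No gene of the other sub-lists was called, which were 14 genes of autophagosome fusion, 4 of the Pink1 and Parkin route of mitophagy, 16 other core and regulatory subunits and 6 other transcriptional regulators. The median log2 change was 0.15 for fusion, 0.24 for the mitophagy genes, -0.01 for the other subunits and 0.03 for the regulators. For the 19 other selective autophagy receptors, Retreg3 among them, it was 0.00, with 10 positive and 9 negative changes. The positive changes of the 3 cargo receptors among the members were thus not seen across this wider list. Over all 89 genes, 12 did not overlap between the ages (13.5%, beside 11.6% of all genes), and 14 had an unadjusted limma p under 0.05 (15.7%, beside 17.1%), 9 with higher and 5 with lower values in 29M.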

How the data were processed

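Hippocampal RNA of 8 samples, 4 of 3M and 4 of 29M, was grouped by the sample titles. The authors deposited 1 scanner file per array with linear spot intensities that had not been normalized across arrays, made with Agilent Feature Extraction 10.7.3.1 per the file headers (the study's methods name another version and array design). Median spot intensities were used, as mean intensities were planned but were not among the columns. The deposited table of the series also holds intensity values: each of its 8 columns was identical, within 0.001, to an array's mean local background, in 7 cases that of another sample, with column medians from 26.7 to 34.8, so it holds linear background intensities without centring and was not used as expression. Samples were assigned by their own files, and whether the columns or the files were exchanged was not tested, so the assignment of arrays to ages is uncertain to that extent.

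Outlier spots, 127 to 190 on each array, and control spots were removed. A variance stabilising model (own implementation in R 4.3.3, quantile 0.9, 7 iterations) was applied, replicate spots were averaged, and a linear model with age was fitted in limma 3.58.1 with eBayes and Benjamini-Hochberg adjustment over 39408 probes with at least 3 usable arrays per group. Its generalized log2 scale understates changes of dim probes. The test was checked on simulated data for this comparison: of 200 among 39429 probes changed by 1 on the log2 scale, 92% were recovered, all with the right sign, and 5.15% of calls were false. The number of arrays limits the precision.

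Probes were named by matching accessions to RefSeq genes of GRCm38.p6, which gave a symbol to 26055 of 39429 probes (66.1%). A gene's value was read on its brightest probe (mean of all arrays). Epg5 and Calcoco2, of the pathway list, had no matched probe. Every member is named with its change, and array values are given for Ulk1, Becn1, Atg5, Atg7, Map1lc3b, Sqstm1 and Tfeb and for members that did not overlap between ages or had an unadjusted p under 0.05. Of the other pathway genes, the called ones and the 3 largest changes in each direction were to be named, and further ones named here were chosen after their values were seen. The members and lists were chosen with earlier results of these data known. Alternatives are given in the closing section, and those for the other pathway genes were added after the data were seen.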

Additional observations from a re-analysis of the deposited data

Results flagged for a closer look

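In 66 groups of 4 arrays (33 genes at 2 ages) the distance of the highest or lowest array from its nearest neighbour was divided by the range of the group, and 3 groups passed Dixon's 95% critical value, where chance gives about 1 in 20, or 3.30 groups. For Atg4a, 3M replicate 1 read 5.61 and the other 3M arrays 5.46 to 5.47 on the normalized log2 scale (ratio 0.947), with the probe not well above background. For Atg4d, 29M replicate 1 read 13.32 and the others 13.50 to 13.54 (ratio 0.833). For Gabarapl2, 29M replicate 3 read 15.45 and the others 15.19 to 15.23 (ratio 0.853). None of these arrays belongs to a gene called in the comparison.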

How the results depend on the processing

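No autophagy gene was called higher or lower in any of the 17 alternative fits, and leaving out each array in turn gave 0 to 0 called genes in each direction. These counts had little room to vary, since every reported change was under the fold threshold. The count at an adjusted p under 0.05 was also 0, which was fixed in advance because none was called at 0.1. The median log2 change of the members, 0.04, was 0.07 with slide as a fixed block and 0.02 to 0.05 without 1 array. Atg7, -0.05 in the reported fit, had a change of 0.04 with the normalization on processed signals, 0.01 with log2 processed signals minus the 75th percentile and -0.10 to 0.01 without 1 array, where the value without 3M replicate 1 was 0.01. Ulk1, 0.13 in the reported fit, had -0.01 with the normalization on processed signals and -0.03 with the 75th percentile. None of these values passed the test, and the cause was not tested. Ambra1 had an adjusted p (limma) under 0.1 in 6 of the 17 fits and Sqstm1 in 5. Leaving out 1 array took the adjusted p of Ambra1 (limma) above 0.1, to between 0.105 and 0.212, for every array but 3M replicate 1 (0.0977).

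Of the other pathway genes, 0 were called higher in any fit, and 1 (Retreg3) was called lower in every fit except that without 3M replicate 1, where 2 were (Retreg3 and Ddit4), so that leaving out each array gave 1 to 2. These alternatives were chosen after seeing the data.

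With the replicate number as a block the counts of called members were 0 and 0 and the median was 0.04, while the number of genes called over the whole array was 278 in place of 539. The deviations of same-numbered samples from their groups correlated at -0.244, 0.208, -0.231 and 0.0715 for replicate numbers 1, 2, 3 and 4. Whether the numbers pair the samples was not tested. A change under the fold threshold, such as those of Ambra1 and Sqstm1, is not called whatever its precision. With 4 arrays per group, the adjusted p (limma) of both genes also fell on either side of 0.1 between the alternative fits. It ran from 0.0492 to 0.23 for Ambra1 and from 0.0782 to 0.25 for Sqstm1.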
